A study of Sus scrofa with 36 samples.

Results

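Thyroid hormone is made by follicular cells on a large secreted protein, thyroglobulin, and the 9 genes described here code for that protein and for parts of the machinery that acts on it. They are thyroglobulin itself (TG), the iodide transporter SLC5A5, the anion transporter SLC26A4, the chloride channel ANO1, the hydrogen peroxide generating oxidases DUOX1 and DUOX2, the maturation factor DUOXA2, the iodotyrosine deiodinase IYD and the lysosomal protease cathepsin B (CTSB). An array probe was taken as a member when its gene name was one of these symbols or its description held the symbol in round brackets. Probes were found for 8 of the 9 genes, among 12124 named genes on the array, and ANO1 was not analysed here because no probe met the rule. The 8 genes had 35 probes, of which 34 were tested. TG had 10 probes, CTSB 7, DUOX2 5, DUOXA2 4, DUOX1 3, IYD 3, SLC5A5 2 and SLC26A4 1.

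The thyroid glands of 36 castrated male growing pigs were measured on 1-colour Agilent porcine arrays, 1 pig per array, with 6 pigs in each of 6 groups made by 3 breeds and 2 labelled temperatures. The breeds were Creole (CR), Large White (LW) and their cross, labelled F1. The groups labelled 24 °C were slaughtered before, and those labelled 30 °C after, an exposure that the protocol text gives as 5 days at 32 °C, and by the study's methods some of them had a day less. Temperature and the time of slaughter therefore cannot be told apart, and because the pigs of a breed came from few litters, which the labels do not give, breed and family cannot be told apart either. The ages of the pigs are not in the labels, and no agent or altered gene is named for any group.

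Follicular cells take up iodide from blood through SLC5A5 at their basal side and pass it to the lumen at the apical side, where SLC26A4 and ANO1 are known as anion pathways. DUOX2 and DUOX1, which need DUOXA2 or its relative DUOXA1 to reach the cell surface, supply the hydrogen peroxide that is needed to attach iodine to tyrosines of TG. TG is then taken back into the cell, cathepsins including CTSB cut it to free the hormones, and IYD strips iodine from unused iodotyrosines so that it can be used again.

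Values are log2 of quantile-normalized spot intensity, so a difference of 1 is a doubling of intensity. A probe is called when its adjusted p in limma's test, corrected over all 46222 tested probes of the array, is under 0.05. Probes of a gene are numbered by falling mean intensity, and probe 1 stands for the gene. Intensities of different probes were not set against each other, since each probe binds with its own strength. On each array 72.8% to 80.3% of probes exceeded background clearly by the scanner software's call, and 0 spots were saturated. The tissue label was checked against 5 follicular cell markers, and TSHR, PAX8, NKX2-1, FOXE1 and HHEX were all well above background on 36 of 36 arrays. So were the 34 tested probes of the 7 remaining member genes.

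Several of the 60-base probes share sequence, which decides how far they are separate measurements of a gene. TG probe 1 lies nearest to the end of the TG transcript, from base 7981 per the scanner files, and TG probe 9 lies farthest upstream, from base 4544; both are shown because they mark the stretch over which the TG signal was read.
TG probe 1: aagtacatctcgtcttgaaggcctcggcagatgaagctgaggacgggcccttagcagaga
TG probe 9: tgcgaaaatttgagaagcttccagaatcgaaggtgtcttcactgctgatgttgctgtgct

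TG probe 10 carries the opposite strand. Its first 24 bases, in capitals, are the reverse complement of the first 24 bases of TG probe 2, also in capitals, and the pair is shown because it sets TG probe 10 apart from the other probes of the gene.
TG probe 2: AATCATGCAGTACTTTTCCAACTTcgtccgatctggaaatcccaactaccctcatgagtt
TG probe 10: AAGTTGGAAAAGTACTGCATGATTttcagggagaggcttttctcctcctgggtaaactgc

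The oxidase genes DUOX1 and DUOX2 are near-identical over part of their coding sequence, and DUOX1 probe 3 shares a run of 43 bases, in capitals, with DUOX2 probe 5. RNA of either gene can pair with both probes, so neither is a separate reading of its gene.
DUOX1 probe 3: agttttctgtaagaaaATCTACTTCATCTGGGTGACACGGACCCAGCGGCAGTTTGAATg
DUOX2 probe 5: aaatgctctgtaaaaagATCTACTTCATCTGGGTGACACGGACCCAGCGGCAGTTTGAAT

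The IYD probes overlap, and IYD probes 1 and 2 share a run of 33 bases, in capitals. Over the 58 bases of their overlap they differ by T18C, C52T and C54T, with the base of IYD probe 1 first and positions counted from 1 at its 5′ end. The 3 IYD probes therefore read nearly the same stretch of the transcript.
IYD probe 1: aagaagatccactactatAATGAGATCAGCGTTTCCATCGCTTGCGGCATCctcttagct
IYD probe 2: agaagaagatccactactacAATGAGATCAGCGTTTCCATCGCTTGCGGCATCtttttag

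CTSB probes 4 and 5 are the member probes called between breeds below, and they are identical over all 60 bases, as DUOX1 probes 1 and 2 are. They are thus repeat readings of 1 sequence on the array rather than separate parts of the transcript, and their first 30 bases are given. CTSB probes 1 and 2, not printed, share a run of 40 bases.
CTSB probes 4 and 5: tattctttgagttcagataagatgcaggag

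Across the 3 breeds, none of the 34 member probes was called between the pigs labelled 30 °C and 24 °C, and 0 reached an unadjusted p under 0.05. Over the whole array limma called 545 of 46222 probes, which is 1.18%, and 9.74% had an unadjusted p under 0.05. Of the member probes 13 had a positive and 21 a negative difference, taken as 30 °C minus 24 °C, with a median difference of -0.01 beside 0.01 over all tested probes. The largest difference was 0.2 on the log2 scale, for SLC5A5. In whole tissue, fewer cells of a type and less RNA per cell cannot be told apart.

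TG, the scaffold on which the hormones are formed, had nearly the same level at both temperatures. The lowest, median and highest log2 intensity of TG probe 1 were 18.3, 18.92 and 19.09 in the 18 pigs at 24 °C and 18.15, 18.88 and 19.07 in the 18 pigs at 30 °C. The ranges overlapped almost wholly, and 10 of 18 hot pigs lay above the 24 °C mean of their own breed. The difference was -0.01 (SE 0.09, 95% interval -0.19 to 0.16, limma adjusted p 0.985).

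Of the other TG probes, none had a heat difference outside -0.08 to 0.04. The difference was 0 for TG probe 2 (SE 0.04), -0.05 for TG probe 3 (SE 0.1), -0.04 for TG probe 4 (SE 0.1) and -0.08 for TG probe 5 (SE 0.1). It was -0.01 for TG probe 6 (SE 0.1), 0 for TG probe 7 (SE 0.1), -0.01 for TG probe 8 (SE 0.09) and 0.04 for TG probe 9 (SE 0.08). TG probe 10, on the opposite strand, gave 0.04 (SE 0.05). Their limma adjusted p lay between 0.888 and 1, and each 95% interval held 0. TG probes 1 and 2 are bright, and quantile normalization narrowed their spread. With scaling to the 75th percentile of each array and no quantile step, the SD over pigs was 0.3 in place of 0.27 for TG probe 1 and 0.16 in place of 0.12 for TG probe 2, and their heat differences were -0.03 (SE 0.09) and 0.01 (SE 0.06).

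In the 6 groups TG differed little as well. Its lowest, median and highest log2 intensity were 18.3, 18.79 and 19.09 in CR pigs at 24 °C and 18.15, 18.52 and 19.07 at 30 °C. In F1 pigs they were 18.37, 18.94 and 19.07 at 24 °C and 18.76, 18.97 and 19.02 at 30 °C. In LW pigs they were 18.33, 18.92 and 19.02 at 24 °C and 18.56, 18.88 and 19.07 at 30 °C. Ordered by mean, F1 at 30 °C stood first (18.92 ± 0.1, SD, n = 6), followed by LW at 30 °C (18.87 ± 0.18), F1 at 24 °C (18.85 ± 0.26), LW at 24 °C (18.82 ± 0.26), CR at 24 °C (18.74 ± 0.32) and CR at 30 °C (18.57 ± 0.4). No neighbours in that order stood apart, since each gap was smaller than the SD of both groups, and all ranges overlapped.

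SLC5A5, the sodium-iodide symporter, had the largest heat difference of the members and one of the widest spreads. The lowest, median and highest log2 intensity of SLC5A5 probe 1 were 15.28, 16.74 and 17.55 at 24 °C and 15.72, 16.84 and 17.82 at 30 °C. High and low pigs stood in both groups, and the ranges overlapped over most of their length. The difference was 0.2 (SE 0.2, 95% interval -0.22 to 0.61, limma adjusted p 0.857), and 12 of 18 hot pigs lay above the 24 °C mean of their breed. SLC5A5 probe 2 gave 0.19 (SE 0.21).

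SLC26A4, known as pendrin, was not well above background on any of the 36 arrays. Its single probe read between 4.59 and 5.12 on the log2 scale, with a mean of 4.81, and it was not tested. The reading is a bound for this probe and gives no order among the groups.

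Of the oxidases, DUOX1 had positive heat differences on its 3 probes, none called. DUOX1 probe 1 had a lowest, median and highest log2 intensity of 10.08, 10.44 and 10.91 at 24 °C and 9.92, 10.56 and 11.2 at 30 °C, and both the lowest and the highest pig were in the hot group. The heat difference was 0.14 (SE 0.09, 95% interval -0.04 to 0.31, limma adjusted p 0.66), with 14 of 18 hot pigs above the 24 °C mean of their breed. DUOX1 probe 2, of the same sequence, gave 0.15 (SE 0.09, adjusted p 0.628), with 16 of 18.

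DUOX2, the main oxidase of the follicular cell, differed by -0.02 with heat over the breeds (SE 0.06, 95% interval -0.15 to 0.1, limma adjusted p 0.966). Within the breeds DUOX2 probe 1 had different signs. Its lowest, median and highest log2 intensity were 14.11, 14.25 and 14.44 in F1 pigs at 24 °C and 14.23, 14.48 and 14.77 at 30 °C, a difference of 0.23 (SE 0.1, unadjusted p 0.0197 and adjusted p 0.357 in limma). In CR pigs they were 14.26, 14.43 and 14.76 at 24 °C and 14.24, 14.31 and 14.41 at 30 °C, a difference of -0.14 (SE 0.1). In LW pigs they were 14.34, 14.48 and 14.53 at 24 °C and 13.89, 14.3 and 14.59 at 30 °C, a difference of -0.16 (SE 0.1). The hot and cool ranges overlapped in each breed. The test of whether the heat difference varied with breed gave an unadjusted p of 0.00953 for this probe and an adjusted p of 1 in limma, so it did not pass over the array. This probe is annotated with a human DUOX2 transcript. DUOX2 probes 2, 3 and 4 had its signs in each breed, none called. Their differences were 0.13, 0.27 and 0.17 in F1 pigs and -0.11, -0.17 and -0.07 in CR pigs. In LW pigs they were -0.14, -0.12 and -0.1. DUOX2 probe 5 was positive in each breed, at 0.07 in F1, 0.05 in CR and 0.09 in LW pigs. How alike the DUOX2 probes ranked the pigs within groups is described below.

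DUOXA2, the factor that brings DUOX2 to the surface, had heat differences of -0.06 to -0.12 on its 4 probes, none called. DUOXA2 probe 1 had a lowest, median and highest log2 intensity of 13.29, 13.97 and 14.43 at 24 °C and 13.2, 13.88 and 14.47 at 30 °C, with overlapping ranges. The difference was -0.06 (SE 0.12, 95% interval -0.3 to 0.19, limma adjusted p 0.951). Its largest difference within a breed was -0.38 in LW pigs (SE 0.2, adjusted p 1).

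IYD, which returns iodide to the cell, varied most from pig to pig. The lowest, median and highest log2 intensity of IYD probe 1 were 12.92, 14.57 and 15.13 at 24 °C and 13.2, 14.59 and 15.79 at 30 °C, and the groups overlapped almost fully. The heat difference was -0.01 (SE 0.23, 95% interval -0.47 to 0.45, limma adjusted p 0.998). Its interval was the widest of the members.

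CTSB, the protease, differed by -0.05 with heat (SE 0.04, 95% interval -0.12 to 0.03, limma adjusted p 0.786). CTSB probe 1 had a lowest, median and highest log2 intensity of 16.09, 16.23 and 16.56 at 24 °C and 15.95, 16.17 and 16.41 at 30 °C. The other 6 CTSB probes lay between -0.1 and 0.02, and by probe 1 CTSB had the narrowest spread over pigs of the members.

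**Figure D1:**
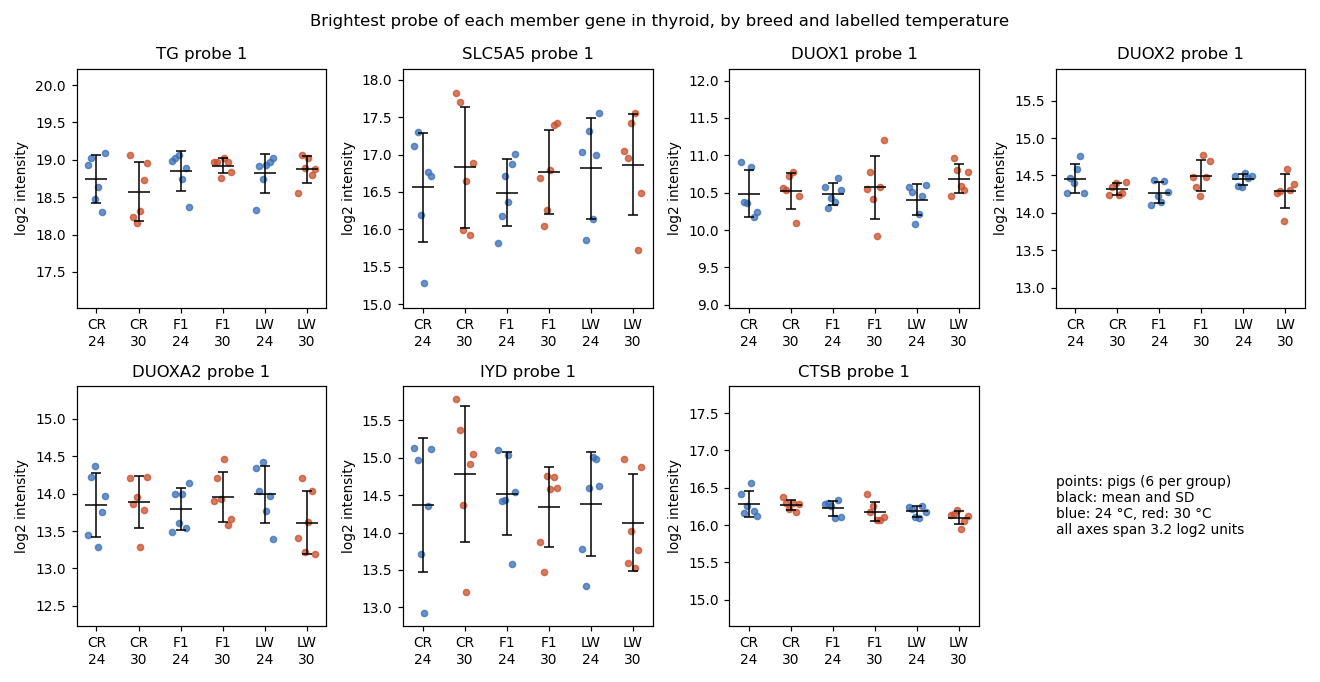
Log2 intensity of probe 1 of the 7 tested member genes in the 36 pigs, by breed (CR, F1, LW) and labelled temperature in °C. Points are pigs, 6 per group, black bars are the mean and SD, and all axes span the same number of log2 units, so that the wide spread of SLC5A5 and IYD (SD 0.63 and 0.7 over pigs) and the narrow one of CTSB (0.12) can be compared directly.

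The heat comparison was also made within each breed. In CR pigs 0 member probes were called, beside 0.387% of the array, and 0 reached an unadjusted p under 0.05, beside 5.75%. In F1 pigs 0 were called, beside 0.383%, and 2 had an unadjusted p under 0.05, beside 10.6%. These were DUOX2 probe 1 given above and CTSB probe 7, with a difference of -0.41 (p 0.00966, adjusted p 0.28 in limma). In LW pigs 0 were called, beside 0% of the array, where 1852 of the 46222 probes, or 4.01%, had an unadjusted p under 0.05 and 0 of the members did.

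The signs of TG differed between breeds without passing a test. Of the 10 TG probes 9 were lower at 30 °C in CR pigs, with a median difference of -0.21, and 9 were higher in F1 pigs and 9 in LW pigs, with medians of 0.05 and 0.13. The exception was TG probe 10, on the opposite strand, in CR (0.11) and LW pigs (-0.02), and TG probe 4 in F1 pigs (-0.07). The probes were read on the same pigs, and TG probes 3 to 8 gave r of 0.74 to 0.98 with each other. They are thus not separate readings. The interaction of breed and temperature was called for 0 member probes and for 0% of the array in limma, where 2157 probes, or 4.67%, had an unadjusted p under 0.05. Among the members DUOX2 probe 1 and CTSB probe 7 (p 0.043) were below that level, and for TG probe 1 the p was 0.459.

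Between the parental breeds, LW pigs had less CTSB signal than CR pigs by 2 probes, and no other member probe was called. That is 2 of 34 member probes, or 5.88%, both lower, where limma called 12.9% of the array in either direction and 5.73% lower, so the members' share was near that of the array. The called probes were CTSB probes 4 and 5, which hold the same sequence. Altogether 17 member probes were higher and 17 lower in LW pigs, with a median of 0.01 beside 0 over all tested probes.

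The lowest, median and highest log2 intensity of CTSB probe 4 were 12.94, 13.13 and 13.49 in the 12 CR pigs, 12.92, 13.19 and 13.49 in the 12 F1 pigs and 12.63, 12.85 and 13.18 in the 12 LW pigs. For CTSB probe 5 they were 12.82, 12.99 and 13.19 in CR pigs, 12.76, 12.98 and 13.29 in F1 pigs and 12.46, 12.65 and 12.92 in LW pigs. LW pigs were the low ones on both probes, CR and F1 pigs lay together, and the range of LW pigs overlapped with those of the others, reaching above the CR median on CTSB probe 4. All 12 LW pigs lay below the CR mean on both probes.

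CTSB probe 4 was lower in LW than in CR pigs by a difference of -0.32 (SE 0.06, 95% interval -0.45 to -0.19, limma adjusted p 0.000741), or 1.25-fold. CTSB probe 5 gave -0.34 (SE 0.06, 95% interval -0.45 to -0.23, adjusted p 6.6e-05), or 1.26-fold. The difference was present at both temperatures, -0.28 at 24 °C and -0.36 at 30 °C on CTSB probe 4. Within each of the 5 slides on which the arrays lay, it was between -0.2 and -0.46 on both probes. Each slide held few pigs of a breed. On slide 5 these were 1 CR pig, at 30 °C, and 2 LW pigs, at 24 °C, so breed and temperature cannot be told apart there.

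F1 pigs were higher than LW pigs on the same probes. The difference was 0.33 on CTSB probe 4 (limma adjusted p 0.00328) and 0.32 on CTSB probe 5 (adjusted p 0.0011), and 12 of 12 F1 pigs lay above the LW mean on each. These were the 2 of 34 member probes called for F1 against LW, both higher, beside 1.99% of the array in either direction and 1.07% higher. Against CR the same probes differed by 0.01 (SE 0.06, 95% interval -0.13 to 0.14) and -0.02 (SE 0.06, 95% interval -0.13 to 0.09). The comparisons share the LW or CR pigs. Set against the mean of the parental breeds, 0 member probes were called, beside 0.439% of the array, and CTSB probes 4 and 5, at 0.17 and 0.15, were the 2 with an unadjusted p under 0.05, beside 10.4%.

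Of the 7 CTSB probes 6 had a negative difference for LW against CR, and 5 of the 7 had an unadjusted p under 0.05, beside 26.2% of the array, though the 2 above alone were called. CTSB probes 1 and 2 share a run of 40 bases and CTSB probes 4 and 5 are identical, so the 5 are not all separate readings of the gene. CTSB probe 1 gave -0.13 (SE 0.05, limma adjusted p 0.0532), CTSB probe 2 gave -0.14 (adjusted p 0.0762) and CTSB probe 6, annotated with a human CTSB transcript, gave -0.17 (adjusted p 0.0788). CTSB probe 3 gave -0.03 (adjusted p 0.774), and CTSB probe 7, the nearest to the transcript's start of those the files place, gave 0.21 (adjusted p 0.251), the 1 positive difference of the gene. Of the 12 LW pigs, 0 lay above the CR mean on CTSB probe 1, 1 on CTSB probe 2 and 1 on CTSB probe 6. On CTSB probe 3 it was 6 of the 12, and on CTSB probe 7 it was 9.

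**Figure D2:**
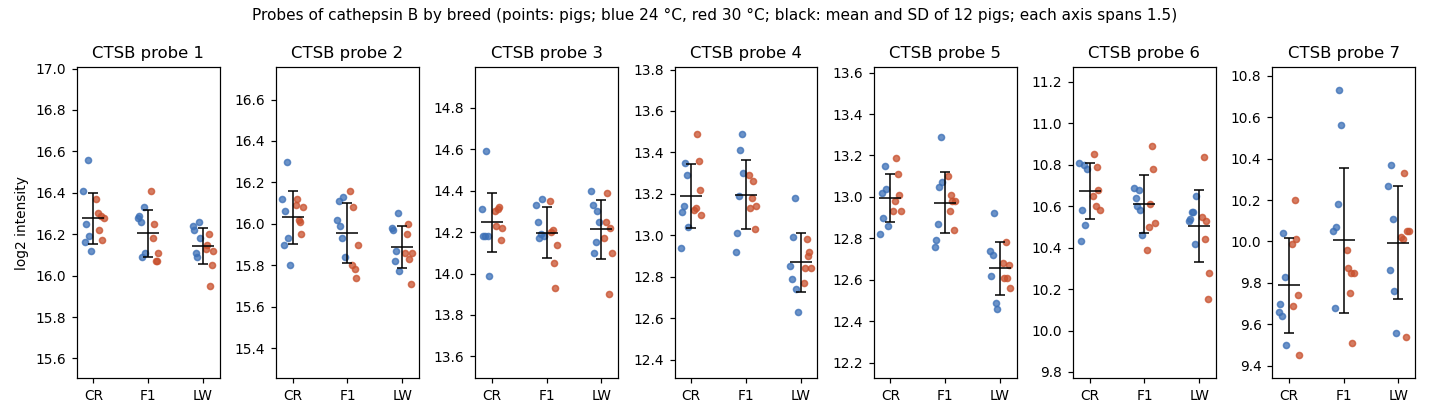
Log2 intensity of the 7 CTSB probes in CR, F1 and LW pigs. Points are pigs, blue at 24 °C and red at 30 °C, and black bars are the mean and SD of 12 pigs; each axis spans the same range, and LW pigs lie lower on probes 4 and 5 (medians 12.85 and 12.65, against 13.13 and 12.99 in CR).

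Markers of other cell types also differed between these breeds. Of 5 adipocyte markers 3 were lower in LW than in CR pigs, ADIPOQ by a difference of -1.21, PLIN1 of -1.2 and CIDEC of -0.79, and the same 3 were higher in F1 than in LW pigs, by 1.25, 1.15 and 1.02. The summed log2 level of the 5 ran from 13.77 to 15.35 in CR pigs and from 13.89 to 14.93 in LW pigs. Of 5 endothelial markers 3 were higher in LW than in CR pigs, PECAM1 by 0.35, CDH5 by 0.19 and KDR by 0.73, while VWF differed by -0.12 and was not called, and the summed level ran from 14.46 to 15.03 in CR and from 14.76 to 15.24 in LW pigs. Of the 3 probes each of CIDEC and KDR, 1 was called for LW against CR. The 6 called adipocyte and endothelial markers were well above background on 36 of 36 arrays. Among 7 skeletal muscle markers, with a median difference of -0.12 for LW against CR, ACTA1 alone was called. It was higher by 0.22 (limma adjusted p 0.0147), on 6 of its 17 probes. The part of these markers in the CTSB difference was not tested.

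No other member differed between breeds by a called amount. TG probe 1 had a difference of 0.18 for LW against CR (SE 0.11, 95% interval -0.03 to 0.4, limma adjusted p 0.276), with CR pigs at a median of 18.69, F1 pigs at 18.97 and LW pigs at 18.9, and with overlapping ranges. The remaining TG probes lay between -0.13 and 0.15, 5 higher and 4 lower. SLC5A5 gave 0.14 (SE 0.25, 95% interval -0.36 to 0.65), IYD -0.32 (SE 0.28, 95% interval -0.89 to 0.25), DUOX1 0.04 (SE 0.11, 95% interval -0.17 to 0.26), DUOX2 -0.02 (SE 0.08, 95% interval -0.17 to 0.13) and DUOXA2 -0.06 (SE 0.15, 95% interval -0.36 to 0.24).

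F1 pigs against CR pigs gave 0 called member probes, beside 3.38% of the array, and 4 with an unadjusted p under 0.05, beside 17.2%. These were TG probe 1 with 0.23 (p 0.0404), TG probe 4 with 0.26 (p 0.0492), and the DUOX1 probe 3 and DUOX2 probe 5 that share their sequence, with 0.19 (p 0.0484) and 0.2 (p 0.0404). Their adjusted p in limma lay between 0.261 and 0.289. Of the 10 TG probes 8 were higher in F1 than in CR pigs, with a median of 0.15, and TG probes 9 and 10 were lower. The TG probes were read on the same pigs and are not separate readings.

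**Figure D3:**
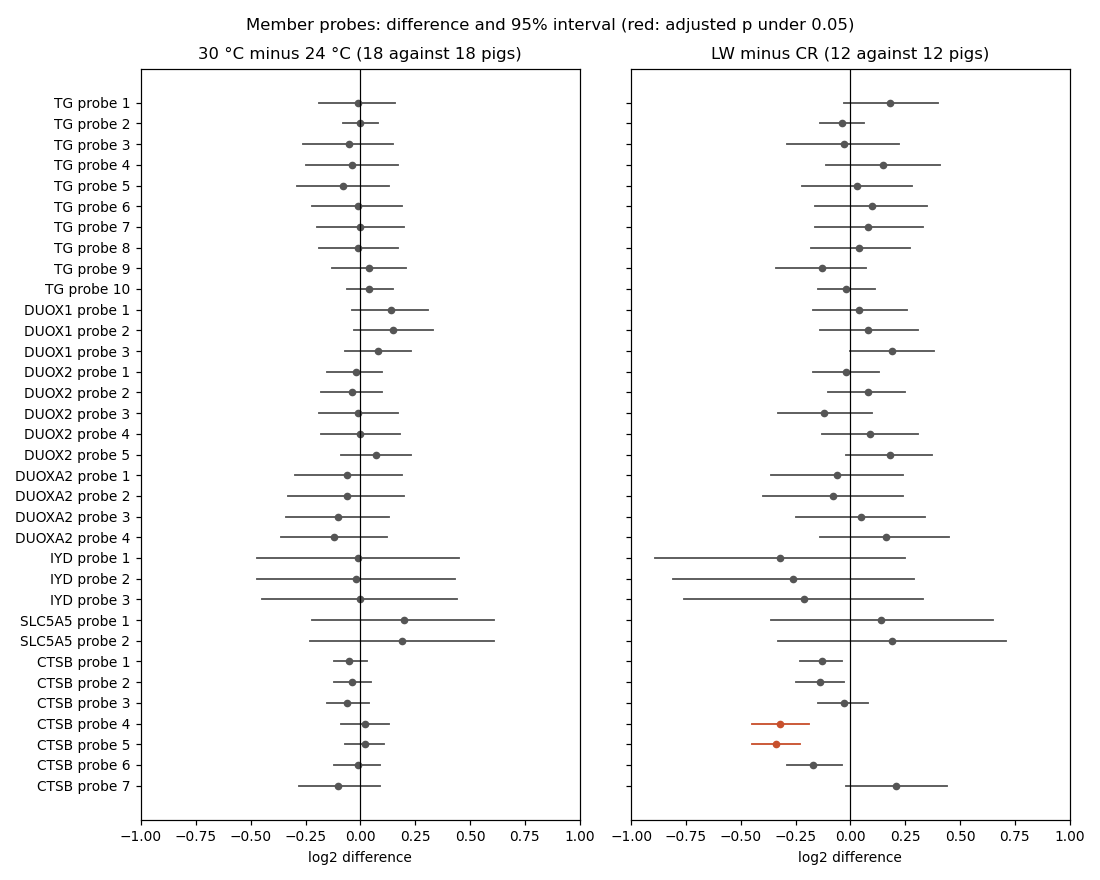
Difference on the log2 scale and its 95% interval for each of the 34 tested member probes, for 30 °C minus 24 °C (18 against 18 pigs, left) and for LW minus CR (12 against 12 pigs, right). Red marks adjusted p under 0.05 and falls on CTSB probes 4 and 5 in the right panel, at -0.32 and -0.34; IYD and SLC5A5 have the widest intervals.

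How far the members varied from pig to pig differed widely. IYD probe 1 had an SD of 0.7 over the 36 pigs and a range of 2.87 on the log2 scale, a 7.32-fold span of intensity. SLC5A5 probe 1 had an SD of 0.63 and a 5.83-fold span. These were the most variable members. DUOXA2 followed with an SD of 0.36 and a 2.4-fold span, TG with 0.27 and 1.92-fold, DUOX1 with 0.26 and 2.43-fold, DUOX2 with 0.18 and 1.84-fold, and CTSB with 0.12 and 1.52-fold. Most of this spread lay within the 6 groups, at 94.8% of the variance for SLC5A5, 91.7% for IYD and 82.7% for TG. With 6 pigs in each of 6 groups, most of the variance lies within groups even where the groups do not differ. On CTSB probes 4 and 5, singled out because they were called between breeds, the share within groups was 46.4% and 38.7%, so the groups held the larger part.

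Whether the probes of a gene ranked the pigs alike was described by the correlation of their deviations from the group means over 36 pigs. The probes share the same libraries, so these are descriptions. The 3 IYD probes, which overlap, gave r of 0.99 to 1. The pair of SLC5A5 probes gave 0.99 and the 4 DUOXA2 probes 0.95 to 0.99, so the wide spread of these genes was read alike by each of their probes. The DUOX1 probes gave 0.77 to 0.97.

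TG probes agreed in part. Among TG probes 1 to 9, 36 pairs gave r from 0.02 to 0.98 with a median of 0.79, and TG probes 3 to 8, in the middle of the measured stretch, gave 0.74 to 0.98. The lowest value, 0.02, was between TG probe 1 and TG probe 9, those farthest apart on the transcript. TG probe 10, on the opposite strand, ran from -0.66 with TG probe 2, the probe it is complementary to, to 0.32 with TG probe 9. Pigs with a high TG probe 2 thus tended to have a low TG probe 10.

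By their median r, at 0.5 for DUOX2 and 0.16 for CTSB, the probes of these genes were the least alike. DUOX2 pairs ran from -0.15 to 0.84, with DUOX2 probes 1 and 2 at 0.76, DUOX2 probes 3 and 4 at 0.84 and DUOX2 probes 2 and 5 at -0.15. CTSB probes 1 to 3 gave 0.74 to 0.88 with each other, CTSB probes 4 and 5 gave 0.92, and CTSB probe 1 gave -0.08 with CTSB probe 4. CTSB probe 7 gave 0.71 and 0.79 with CTSB probes 4 and 5, although its breed difference had the opposite sign. CTSB probe 6 gave between -0.19 and 0.03 with the others.

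**Figure D4:**
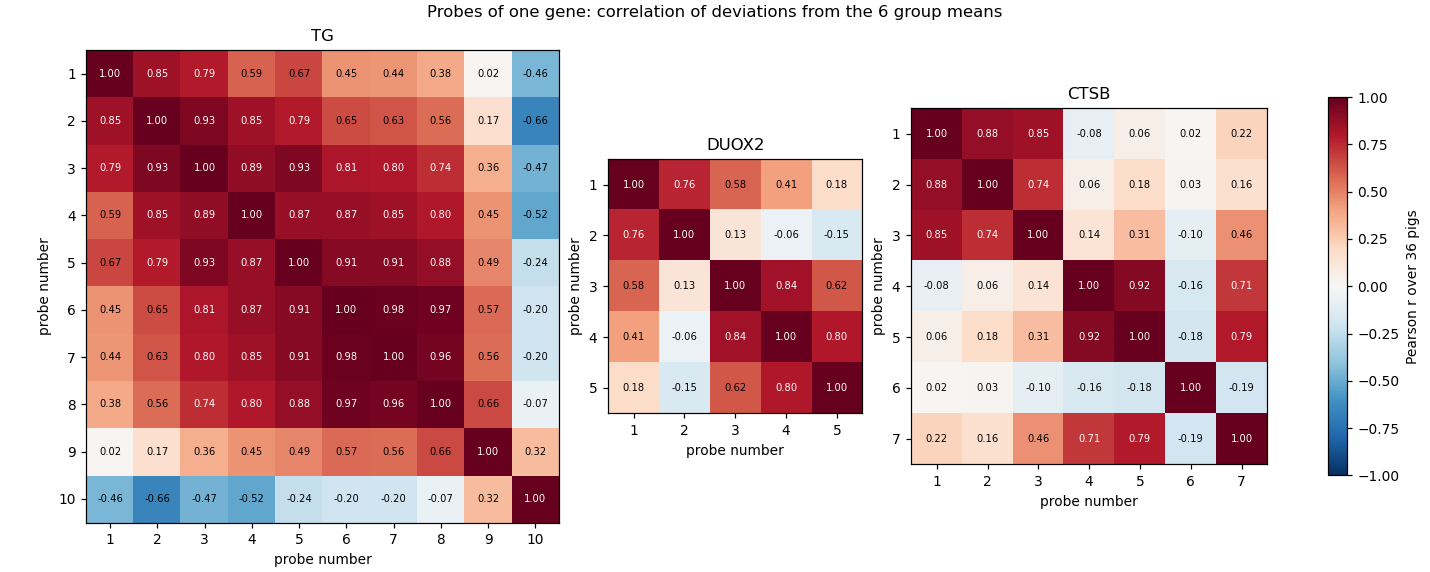
Pearson r between the probes of TG, DUOX2 and CTSB, computed over 36 pigs from deviations from the 6 group means. Red is positive and blue negative; TG probe 10 is negative with TG probe 2 (-0.66), and CTSB probes fall into a set of probes 1 to 3 and a set of probes 4, 5 and 7.

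Whether members of the pathway varied together was tested over all 21 pairs of the 7 genes, on deviations from group means in 36 pigs, with permutation of pigs within groups. No pair passed the Benjamini-Hochberg correction by Pearson's r or by Spearman's rho, and 3 had an unadjusted Pearson p under 0.05. DUOX1 and CTSB gave r = 0.46 (permutation p 0.0211, adjusted p 0.214) and rho = 0.48, and r was 0.56 without the 2 pigs farthest from the median of DUOX1. DUOX1 and DUOXA2 gave r = -0.42 (permutation p 0.0188, adjusted p 0.214) and rho = -0.4, and -0.32 without 2 pigs. IYD and SLC5A5, the most variable members, gave r = 0.41 (permutation p 0.0305, adjusted p 0.214) and rho = 0.34, and 0.33 without 2 pigs. Within breeds r ran from 0.09 to 0.78 for the first pair, from -0.59 to -0.12 for the second and from 0.03 to 0.73 for the third. Within slides it ran from 0.29 to 0.73, from -0.56 to -0.2 and from -0.15 to 0.75, so the third pair changed sign on a slide. DUOX1 and DUOXA2 lie in 1 gene cluster in the order DUOX1, DUOXA1, DUOXA2, DUOX2 in RefSeq's Sscrofa11.1 annotation. Against the mean log2 level of the tested genes in each of 11 marker lists, 77 correlations of the members were computed. Of these 0 passed, and 5 had an unadjusted Pearson p under 0.05. They were CTSB with the skeletal muscle (r = 0.49), follicular cell (0.46), B and plasma cell (0.39) and myeloid lists (0.3), and DUOX1 with the C cell list (-0.37). Each had a permutation adjusted p of 0.526.

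The genes most like SLC5A5 were sought among 10651 named genes by Pearson r of deviations over 36 pigs. They were ATP5H (0.81), MTCH2 (0.81), COX6B (0.8), SELENOH (0.79) and ATP5G1 (0.79). ATP5H and ATP5G1 are known as subunits of the mitochondrial ATP synthase, COX6B of cytochrome c oxidase, and MTCH2 as a protein of the outer mitochondrial membrane. Those most like TG, read by TG probe 1 alone, were VPS28 (0.66), TCTEX1D4 (0.65), G6PC3 (0.63), TNFRSF1A (0.62) and CLIP2 (0.62). With TG probes 2 to 9, TG probe 1 itself gave r from 0.02 to 0.85, so the likeness is to that probe. All share libraries with the member gene, and none of these genes was in the 5 pathway lists described next.

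The rest of the pathway was read from 49 further genes in 5 lists, of which 42 had a probe. With heat, 1 gene of these lists was called by its brightest probe, beside 1.23% of 10658 named genes. It was HSPA5 (BiP), the chaperone that binds newly made TG in the endoplasmic reticulum. Its lowest, median and highest log2 intensity were 15.38, 15.75 and 16.33 at 24 °C and 14.96, 15.55 and 15.76 at 30 °C, with overlapping ranges and the hot pigs lower. The difference was -0.3 (SE 0.07, limma adjusted p 0.0234). In a model without a breed term it was -0.3 with an adjusted p of 0.0576. HBB, a marker of red blood cells, had a difference of -1 (SE 0.19, adjusted p 0.00142) between the same groups; its part in the HSPA5 difference was not tested.

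For LW against CR, where 13.4% of the 10658 genes were called and 6% were called lower, 7 of the 9 genes listed for folding and export of TG were called, all lower in LW pigs, with a median difference of -0.27 beside 0 over all genes. The list was chosen with earlier results of these data known, so the count is a description, and the list as a whole was not tested. HSP90B1, the chaperone GRP94, had a lowest, median and highest log2 intensity of 16.37, 17 and 17.57 in CR pigs, 16.23, 16.81 and 16.94 in F1 pigs and 16.28, 16.62 and 16.88 in LW pigs. The ranges overlapped, with 12 of 12 LW pigs below the CR mean. The difference was -0.43 (SE 0.1, limma adjusted p 0.0034), and 10 of its 10 probes were called.

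PDIA4, a disulphide isomerase, was lower in LW than in CR pigs by a difference of -0.4 (SE 0.1, adjusted p 0.00599 in limma). CALR, the lectin chaperone calreticulin, gave -0.34 (SE 0.07, adjusted p 0.000966), and PDIA3, its partner isomerase, gave -0.3 (SE 0.08, adjusted p 0.00802), and 1 of 2 PDIA3 probes was called. HSPA5 gave -0.27 (SE 0.09, adjusted p 0.0353), and was called in 37 of the 46 settings tried. P4HB and ERP29, the other 2 called genes, gave -0.22 and -0.17. CANX, the membrane-bound relative of CALR, was at -0.14 (adjusted p 0.104) by its brightest probe, with 2 of 4 probes called, and SEC23A, a coat protein of vesicles that leave the endoplasmic reticulum, at 0.16 (adjusted p 0.144). For F1 against LW 0 of the 9 were called, beside 1.9% of the genes. TG itself, the cargo, was not called in these comparisons. The adipocyte and endothelial marker differences given above hold for the same pigs, and their part was not tested.

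**Figure D5:**
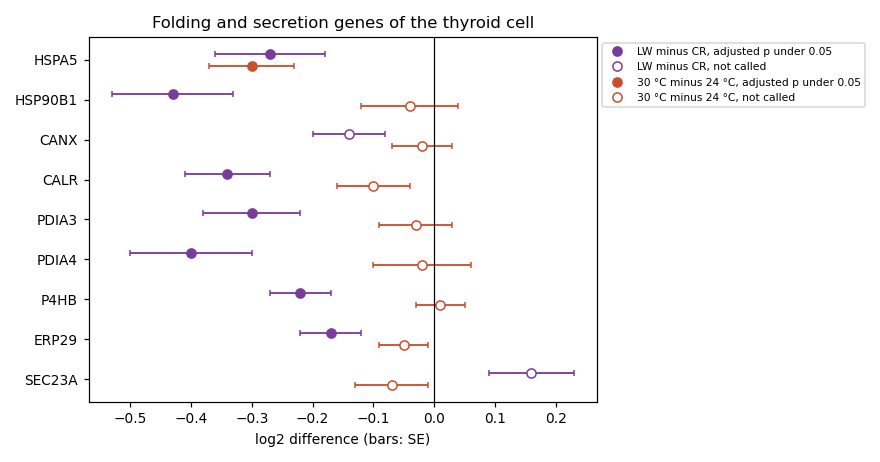
Log2 difference and SE of the brightest probe of 9 genes that fold or export TG, for LW minus CR (purple) and 30 °C minus 24 °C (orange). Filled points have an adjusted p under 0.05; 7 genes are filled on the low side for LW against CR, HSP90B1 the lowest at -0.43, and HSPA5 alone for temperature at -0.3.

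The counts in the other lists for LW against CR stand beside the same 13.4% of all named genes. For iodide and chloride transport 2 of 7 tested genes were called, CFTR, a chloride channel, higher by 0.23 (SE 0.06, adjusted p 0.0122 in limma) and ATP1B1, a subunit of the sodium pump that powers SLC5A5, lower with -0.27 (SE 0.09, adjusted p 0.0475), on 2 of its 5 probes. For colloid uptake and TG breakdown 2 of 10 were called, both higher in LW pigs, the protease CTSH by 0.28 (SE 0.07, adjusted p 0.00679) and the endosome protein RAB5A by 0.19 (SE 0.06, adjusted p 0.0192), on 2 of its 6 probes. CTSH thus was higher in the breed in which CTSB probes 4 and 5 were lower. For organification and hydrogen peroxide supply 0 of 6 and for hormone export, deiodination and carriers 0 of 7 were called. F1 against LW gave 0 called genes in the 5 lists.

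Of the regulators and partners of the member genes, NKX2-1 alone was called, for LW against CR. DUOXA1, the partner of DUOX1, gave 0.04 with heat (limma adjusted p 0.91) and -0.13 for LW against CR (adjusted p 0.218). TSHR, the receptor for thyrotropin, gave 0.15 with heat (adjusted p 0.605) and 0.06 for LW against CR. The transcription factor PAX8 gave 0.12 and 0.18 in the same comparisons and FOXE1 -0.06 and 0.2, none of them called. NKX2-1, which drives TG transcription, gave -0.02 with heat and was higher in LW than in CR pigs by 0.17 (SE 0.05, adjusted p 0.0307), with both of its probes called. TG probe 1, with 0.18 for LW against CR, was not called.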

How the data were processed

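Thyroid RNA of 36 pigs was hybridized to 1-colour arrays. Per the file headers, the scanner files hold spot intensity from Agilent Feature Extraction 10.10.1.1, without scaling across arrays. From it the authors used each spot's median pixel value with no background removed, applied quantile normalization and deposited log2 values for 46097 probes. The values used here were remade in the same way: 1319 control spots were left out, 106 non-uniform spots set to missing, spots of a probe averaged. They differed from the deposited log2 values by a median of 0.00556. A probe was tested when well above background on at least 5 of 6 arrays of a group (46222 of 60305 probes).

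limma 3.58.1 (R 4.3.3) was fitted on all 36 arrays with breed and temperature, or with 6 group means, with p-values adjusted by Benjamini-Hochberg across all tested probes, and was tested on simulated data. Correlations used permutation with 100000 resamples (scipy 1.17.1). Pen, slaughter day and parents, which the authors modelled, are not in the labels, so littermates were treated as independent and breed p-values may be too small. By the study's methods the littermates were spread over pens slaughtered at both temperatures. For heat, leaving out litter may make p-values too large, and leaving out pen and slaughter day may make them too small. Gene names came from the files and RefSeq's Sscrofa11.1 list. Probe sequences came from the files.

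The members and lists were chosen with earlier results of these data known. Every member probe is reported. Of each pathway list the genes named are those called by their brightest probe, at most 5 in each direction, plus 5 regulators and partners whatever their values; P4HB, ERP29, CANX and SEC23A were added after their values were seen. Alternatives changed signal, background, scaling, filter, slide, position, weights and pigs.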

Additional observations from a re-analysis of the deposited data

Results flagged for a closer look

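In 3 of 204 groups of 6 pigs, over 34 probes, a pig stood apart from its group, with a gap to the nearest pig above Dixon's critical share of the group's range; that is 1.47%, where chance flags about 1 in 20 groups. On TG probe 5 the fourth F1 pig at 24 °C was lowest at 15.81, with the nearest at 16.38 (gap over range 0.803). On TG probe 8 the fourth LW pig at 30 °C was lowest at 14.92, with the nearest at 15.33 (0.641). On TG probe 9 the fourth F1 pig at 30 °C was highest at 14.21, with the nearest at 13.4 (0.669). The 3 are different pigs whose arrays lay on slide 3, and all 3 readings are of TG.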

How the results depend on the processing

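The count of member probes called stayed at 0 for heat over breeds, heat within each breed, the interaction, F1 against CR and F1 against the mean of the parental breeds, and at 2 for F1 against LW, under all alternatives run. For LW against CR it was 2, but 4 with slide as a fixed block, and between 2 and 4 when each pig was left out, with 4 without the second and without the sixth CR pig at 24 °C; CTSB probes 4 and 5 kept their calls throughout, at -0.35 to -0.3 and -0.36 to -0.32 with each pig left out. CTSB probe 1, not called above (-0.13), passed in 10 alternatives, among them processed signal (-0.16, adjusted p 0.0478) and slide as a fixed (-0.13, adjusted p 0.0304) or random block (-0.13, adjusted p 0.0373). CTSB probes 2 and 6 passed in 2 alternatives each. HSPA5 lost its heat call without a breed term (-0.3, adjusted p 0.0576). With each pig left out, uncalled differences near 0 changed sign: heat from -0.05 to 0.02 for TG, from -0.05 to 0.01 for DUOX2 and from -0.11 to 0.08 for IYD, and LW against CR from 0 to 0.09 for DUOX1 and from -0.04 to 0.02 for DUOX2. The highest correlation between members, DUOX1 and CTSB, ran from 0.4 to 0.57 with each pig left out, and the folding genes called for LW against CR from 6 to 7. With other signals, scalings and the mean of a gene's probes, that correlation ran from 0.35 to 0.59. Some weaker pairs changed sign there, among them DUOX1 and DUOX2, from -0.18 to 0.38. No paired analysis was possible because the labels do not give the litters. No read depth exists for arrays, so precision is limited by their number, 36, and by how far a signal lies above background.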
